A study of Mus musculus with 12 samples.

Results

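Collagens are the main structural proteins of cartilage, and their chains are encoded by a large gene family whose symbols carry the collagen type and the chain number. The probe sets taken as collagen chains were all those that the platform annotation gives a single symbol of the form Col, a number, a and a number. They were 82 of the 45101 probe sets of the array and named 42 genes. By how the finished protein assembles, 11 of these genes encode fibrillar chains, 9 FACIT chains, 9 network chains and 13 chains of other kinds. RNA had been taken from primary chondrocytes of the tibiae, femurs and humeri of embryonic day 15.5 CD1 mice, grown as monolayers. The cells received dexamethasone (DEX), a synthetic glucocorticoid, at 100 nM, or DMSO, the solvent, as vehicle, for 6 or 24 hrs. Each of the 4 groups (DMSO 6 hrs, DEX 6 hrs, DMSO 24 hrs and DEX 24 hrs) held 3 arrays with the replicate numbers 1, 2 and 4. Isolates of whole cartilage elements can hold perichondrial and other cells beside chondrocytes, and in such bulk RNA fewer cells of a type and less RNA per cell cannot be told apart.

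A collagen molecule is a triple helix of chains that may be alike or different. Fibrillar types pack side by side into fibrils. Cartilage fibrils are built of type II with type XI and carry type IX, a FACIT, on their surface. FACIT stands for fibril-associated collagens with interrupted triple helices. Type I, with types III and V, builds the fibrils of bone, tendon and perichondrium. Network formers make sheets, among them type IV, the scaffold of basement membranes, which also occurs around chondrocytes, and type X, the collagen of hypertrophic chondrocytes. Type VI makes beaded filaments in the matrix that directly surrounds the chondrocyte.

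Sequences are shown for the chain pairs of 1 collagen type that lie on 1 chromosome and were both higher with DEX in all 6 same-numbered pairs of arrays, a choice made from the values given below. Col4a1 and Col4a2 encode the chains of the common type IV trimer and lie head to head on chromosome 8. In the RefSeq annotation of GRCm38.p6, Col4a2 starts at 11312805 on the plus strand and Col4a1 at 11312826 on the minus strand, so the starts were 21 bases apart and the first 22 bases of the transcripts overlap on opposite strands. This stretch lies at chr8:11312805-11312826 and is printed on the strand of Col4a2, with the letters GGGCGG in capitals.

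Col4a1 and Col4a2 shared start: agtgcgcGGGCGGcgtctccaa

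Col6a1 and Col6a2 encode 2 of the chains of type VI and lie on chromosome 10, both on the minus strand. The 250 bases before the outermost RefSeq start are given 5′ to 3′ on that strand. They lie at chr10:76726045-76726294 for Col6a1 and at chr10:76623631-76623880 for Col6a2. Capitals mark CCGCCC, the reverse complement of GGGCGG, which occurs in the Col6a2 stretch, and none of the letters searched occurs in the Col6a1 stretch.

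Col6a1: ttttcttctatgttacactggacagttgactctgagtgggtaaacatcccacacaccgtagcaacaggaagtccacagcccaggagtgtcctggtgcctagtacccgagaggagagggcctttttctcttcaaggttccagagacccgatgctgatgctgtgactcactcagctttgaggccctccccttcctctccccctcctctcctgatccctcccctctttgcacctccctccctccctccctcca

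Col6a2: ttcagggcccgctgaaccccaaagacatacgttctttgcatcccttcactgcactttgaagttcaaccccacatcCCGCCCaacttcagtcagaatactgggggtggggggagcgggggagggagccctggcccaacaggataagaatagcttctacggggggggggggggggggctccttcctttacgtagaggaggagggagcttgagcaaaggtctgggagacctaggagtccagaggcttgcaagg

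RefSeq promoter windows, 250 bases before to 50 after a start, were given for 23 of the collagen genes with a tested probe set, 26 windows in all, and Col12a1, Col1a1 and Col2a1 are among the genes with none. The letters searched on both strands were TATAAA (the TATA box), CCAAT (the CAAT box), GGGCGG (the GC box) and also TGTTCT. Most of the 26 windows held GGGCGG, 18 in all (69.2%), against 35.7% of all 32851 windows of the genome. The collagen windows had a median G and C content of 60%, against 52.7% for all windows, so GC-rich letters are more likely in them by composition alone. CCAAT was found in 38.5% against 37.4%, and TATAAA in 11.5% against 13.6%, the Col10a1 window being one of those with it. The letters TGTTCT, a part of the palindrome that the glucocorticoid receptor is known to bind, occurred in 1 of the 26 windows (3.85%), one before Col9a1, against 19% of all windows. Its inverted repeat with 3 bases between occurred in 0 of the 26, against 0.00913% of all windows, which says only that these letters are not in these windows. In the Col4a1 window 1 CCAAT and 1 GGGCGG were found, and in the Col4a2 window 1 CCAAT and 3 GGGCGG. These windows overlap, so letters can be counted in both.

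Values are GC-RMA intensities as the authors deposited them, on a linear scale, and differences are log2 ratios. The established glucocorticoid targets Tsc22d3, Fkbp5 and Per1 were higher with DEX by 3.48, 2.20 and 1.47 on the log2 scale over both times, each in 6 of 6 same-numbered pairs of arrays. All 12 of the chondrocyte markers on the array were measured, and their summed intensity lay between 14309 and 26973 on the 12 arrays. Genes listed as markers of other cells were measured too: 14 of 14 for tendon and perichondrial fibroblasts, 4 of 5 for osteoblasts and 6 of 8 for skeletal muscle. For macrophages they were 5 of 8, for Schwann cells 3 of 3 and for epithelium 3 of 6. Most of the osteoblast sum was Ibsp (group means 1290 to 2440). Most of the Schwann cell sum was S100b (436 to 865), with Sox10 and Mbp at 57.0 to 80.5. A listed gene can be expressed by other cell types, so these counts do not establish which cells were present. Of 9 endothelial markers only Kdr passed the intensity filter, and Pecam1, Cdh5, Tek, Tie1, Emcn, Vwf, Esam and Cldn5 did not. With DEX the summed chondrocyte markers were higher in 6 of 6 pairs, by 0.05 to 0.44, and those of osteoblasts in 6 of 6, by 0.18 to 1.40. The endothelial sum was higher in 4 of 6 pairs, with differences between -0.32 and 0.41, and that of fibroblasts in 5, between -0.08 and 0.33. In the fibroblast sum the largest rise in group mean was that of Postn, and several other listed genes were lower. Macrophage markers were higher in 1 of 6 pairs (-0.47 to 0.04), Schwann cell markers in 4 (-0.23 to 0.67), epithelial markers in 3 (-1.26 to 1.36) and skeletal muscle markers in 3 (-0.30 to 0.13). What these shifts contribute to the collagen values below was not tested.

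The 4 arrays of replicates 1 and 2 at 6 hrs, which the scanner files place on a hybridization day of their own (day 3), stood apart. The Gapdh control sets lie at the 3′ end and the 5′ end of the transcript. On these arrays the 3′ set minus the 5′ set was a median of 0.64 on the log2 scale, between 0.49 and 0.74, while the other 8 arrays lay between -0.33 and -0.22. For the beta-actin controls the gap was smaller: 0.49 to 0.64 on these arrays and 0.16 to 0.42 on the others. Collagen probe sets were low on these arrays. Against the array of replicate 4, hybridized on day 4, 39 of the 47 tested collagen probe sets were lower in DMSO at 6 hrs, with a median difference of -0.67, and 13 (27.7%) were lower by more than 2-fold, against 14.5% of all tested probe sets, whose median was -0.01. With DEX at 6 hrs 43 of 47 were lower, with a median of -0.65, and 16 (34%) by more than 2-fold, against 15.5% of all, whose median was -0.11. Probe sets of a gene could differ in this. Col1a1, a chain of type I, was at 154 and 249 on the day 3 DMSO arrays and at 5786 on the day 4 array by 1 probe set, and at 556, 487 and 1083 by the other. Since both treatments were hybridized on every day, DEX against DMSO could also be compared within days, but the 6-hr arrays of a group spread widely for many collagens.

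**Figure D1:**
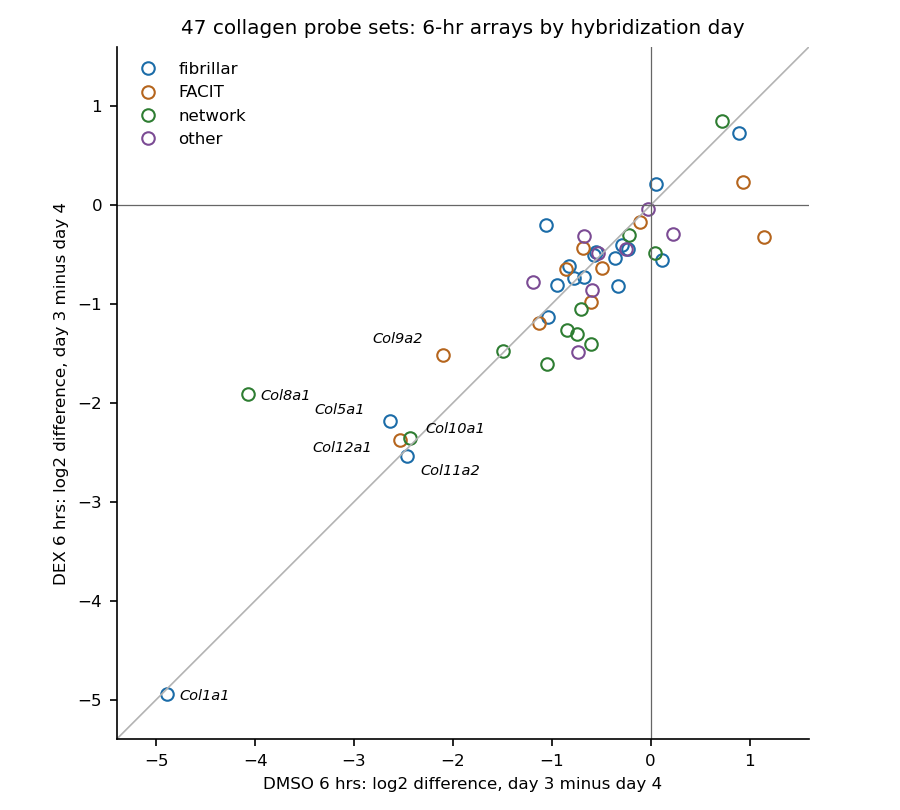
Log2 difference of the mean of the day 3 arrays minus the day 4 array for the 47 tested collagen probe sets, in DMSO (horizontal axis) and with DEX (vertical axis) at 6 hrs. Each circle is a probe set, coloured by class, and the diagonal marks equal differences. Most circles lie below 0 on both axes, near the diagonal, down to -4.89 and -4.94 for a probe set of Col1a1, and names are given below -2.

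To be tested, a probe set had to reach a mean of 50 or more in 1 group or more, and 47 of the 82 collagen probe sets did, among 20897 on the whole array. They represented 29 of the 42 genes: 10 of 11 fibrillar, 6 of 9 FACIT, 7 of 9 network and 6 of 13 other chains. Below the filter were the fibrillar Col24a1, the FACIT chains Col19a1, Col20a1 and Col22a1, the basement membrane chains Col4a3 and Col4a4, the type VI chains Col6a4 and Col6a5, the transmembrane collagens Col13a1, Col17a1, Col23a1 and Col25a1, and Col26a1. Just under the threshold, the highest group mean was 49.1 for a further probe set of Col1a2, 49.1 for one of Col14a1 and 48.1 for Col23a1. Just above it stood the dimmest probe set of Col9a3 at 52.6 and Col4a6 at 57.3. A gene with several tested probe sets is represented below by the brightest over all arrays unless another is named.

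Several collagens were among the brightest features of the vehicle arrays. Ranks place the mean intensity in DMSO among all 45101 probe sets. Probe sets share no common scale, so a rank describes brightness on this array and does not compare amounts of RNA between genes. In DMSO at 6 hrs 7 of the 29 genes were among the brightest 1%, which is 451 probe sets, and at 24 hrs 9 were. Of the cartilage collagens, Col2a1, the chain of type II, had rank 56 at 6 hrs and 9 at 24 hrs. Col9a1 had ranks 96 and 110, Col11a1, a chain of type XI, 109 and 104, and Col9a3 427 and 433, while Col11a2 stood at 2027 and 951 and Col9a2 at 5611 and 3661. Of the chains of types I, III and V, Col5a2 had ranks 143 and 153, Col1a2 144 and 144, and Col3a1 227 and 219. Col1a1 was at 850 and 230, Col5a1 at 1776 and 928, and Col5a3 at 11557 and 9333. In type VI the ranks were 499 and 395 for Col6a1, 583 and 766 for Col6a3 and 678 and 607 for Col6a2. The brightest network chain was Col10a1, at rank 899 and 1819. Far down were Col7a1, the chain of anchoring fibrils, at 16135 and 16760, and Col4a6, at 21957 and 18580.

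**Figure D2:**
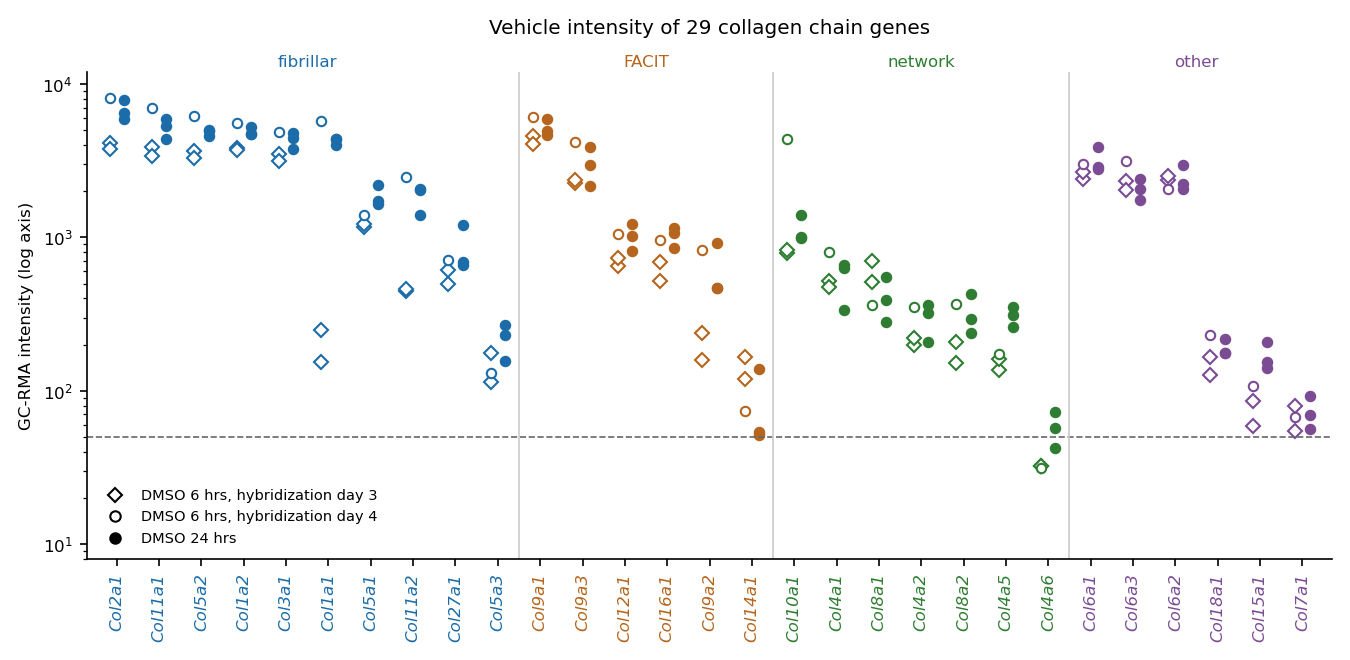
GC-RMA intensity (log axis) of the 29 collagen chain genes on the 6 DMSO arrays, by class and by rank at 6 hrs within a class. Open diamonds are the 6-hr arrays of hybridization day 3, open circles the 6-hr array of day 4 and filled circles the 24-hr arrays, and the dashed line marks 50. Col2a1 lay between 3765 and 8124, and the diamonds of Col1a1, Col10a1 and Col11a2 lie far under the day 4 circle.

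Whether DEX changed collagen chains was asked for each time and for their mean (over both times) with limma, a linear model fitted to all tested probe sets, in which a probe set was called at a Benjamini-Hochberg adjusted p under 0.05. Without a block 0 of the 47 collagen probe sets were called at 6 hrs, 0 at 24 hrs and 0 in the mean of both, while 0.225%, 0.287% and 0.747% of all tested probe sets were. At an unadjusted p under 0.05 there were 2, 2 and 3 collagen probe sets (4.26%, 4.26% and 6.38%), against 3.66%, 6.24% and 5.65% of all. The unequal-variance test that the methods name was run on the same 20897 probe sets at an adjusted p under 0.05, and it called 0 collagen genes. Of all probe sets it called 0 at either time alone. Over both times it compared all DEX with all DMSO arrays, which leaves the time difference in the spread, and called 38. The paper reports a longer list from its own Welch ANOVA, which used another filter and a p cut-off beside the same false discovery rate limit. Why that list is longer was not tested. By gene set enrichment the paper also lists collagens, among them Col4a1, Col4a2, Col6a1, Col6a2, Col10a1 and Col1a1, with the matrix genes enriched with DEX. When the hybridization day was taken into the model as a block, 1 of 47 collagen probe sets was called at 6 hrs (2.13%, against 0.948% of all), 3 at 24 hrs (6.38% against 2.18%) and 4 over both times (8.51% against 2.87%). With same-numbered arrays as a block of pairs, 1 was called at 6 hrs against 0.904% of all, 3 at 24 hrs against 2.15% and 3 over both times against 3.2%. All of these were higher with DEX, and they belonged to Col4a1, Col4a2, Col6a2 and Col12a1. Without regard to size, and by the brightest probe set of each gene, 6 of the 29 genes were higher with DEX in all 6 pairs. These were Col4a1, Col4a2, Col6a2, Col12a1, Col6a1 and Col10a1, and 0 were lower in all 6. Of the further probe sets, one of Col12a1 was higher in all 6 pairs and one of Col3a1 was lower in all 6. Of all tested probe sets, 4.29% were higher in 6 of 6 pairs and 4.71% lower.

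By the brightest probe set of each gene, the largest differences were in the network class, in Col4a1 and Col4a2, the chains of the ubiquitous type IV trimer. In DMSO at 6 hrs Col4a1 was at 516, 475 and 803 for replicates 1, 2 and 4, and with DEX at 941, 694 and 1677. At 24 hrs it was at 627, 338 and 657 in DMSO and at 1440, 723 and 1778 with DEX. Every DEX array was above its own vehicle array, the groups overlapped at 6 hrs, and at 24 hrs they did not. The difference was 0.83 (SE 0.42) at 6 hrs, a 1.77-fold higher geometric mean, and 1.24 (SE 0.42) or 2.37-fold at 24 hrs. Over both times it was 1.04 (95% interval 0.38 to 1.69, adjusted p 0.291 without a block). With hybridization day as a block the adjusted p was 0.0435 at 6 hrs, 0.00401 at 24 hrs and, over both, 8.46e-04, and with the pairs as a block 0.0461, 0.00695 and 0.00199. Within single days the differences were 0.71 on day 3, 1.06 on day 4, 1.10 on day 1 and 1.32 on day 2. The second, dimmer probe set of Col4a1 was not called under any of these models: it differed by 0.10 at 6 hrs and 0.81 at 24 hrs, and was higher in 4 of 6 pairs.

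Col4a2 moved in the same pairs. It was at 200, 219 and 350 in DMSO at 6 hrs and at 346, 259 and 738 with DEX. At 24 hrs the values were 319, 208 and 363 in DMSO and 674, 416 and 773 with DEX. Again each DEX array was above its partner, and at 24 hrs the groups did not overlap. The difference was 0.70 (SE 0.40) at 6 hrs and 1.06 (SE 0.40), or 2.08-fold, at 24 hrs. Over both times it was 0.88 (95% interval 0.25 to 1.51, adjusted p 0.422 without a block), with an adjusted p of 0.00274 with the day block and 0.00852 with the pair block. At 24 hrs these were 0.0120 and 0.0259, and at 6 hrs 0.104 and 0.138, so Col4a2 was not called at 6 hrs. Within days it differed by 0.51 on day 3, 1.08 on day 4, 1.00 on day 1 and 1.08 on day 2. A larger effect at 24 hrs than at 6 hrs was not shown. Without a block the difference between the time points was 0.42 (95% interval -0.90 to 1.74) for Col4a1 and 0.35 (-0.90 to 1.61) for Col4a2. For Col4a1 the interval was -0.07 to 0.91 with the day block and -0.03 to 0.87 with the pair block. For Col4a2 it was -0.16 to 0.86 and -0.18 to 0.89. For that contrast 0 of 47 collagen probe sets were called without a block (0% of all tested probe sets), 0 with the day block (0% of all) and 0 with the pair block (0.00479% of all). At an unadjusted p under 0.05 there were 0 without a block, against 3.63% of all, and 3 (6.38%) with either block, against 11.4% of all with the day block and 12.8% with the pair block.

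The other chains of the network class did not pass the threshold. Col4a5 and Col4a6, which also make type IV trimers and lie head to head on chromosome X with RefSeq starts 1343 bases apart, differed from each other in sign at 24 hrs. Col4a5 was at 137 to 173 in DMSO and 156 to 194 with DEX at 6 hrs, and at 260 to 352 and 344 to 442 at 24 hrs, with differences of 0.11 and 0.32. Col4a6 lay under 50 on all 6-hr arrays and at 35.0 to 73.0 at 24 hrs, with a difference of -0.39 there. Col10a1, the marker of hypertrophic chondrocytes, was higher in 6 of 6 pairs by small amounts. It was at 789, 826 and 4355 in DMSO and 957, 837 and 4547 with DEX at 6 hrs, and at 988, 1395 and 1003 in DMSO and 1333, 1797 and 1346 with DEX at 24 hrs. The groups overlapped at both times. Over both times the difference was 0.26, with an interval of -0.84 to 1.37 without a block and 0.09 to 0.44 with the pair block, where its adjusted p was 0.142. The short-chain collagens Col8a1 and Col8a2 differed by -0.02 and -0.03 over both times, with 2 and 3 of 6 pairs higher.

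**Figure D3:**
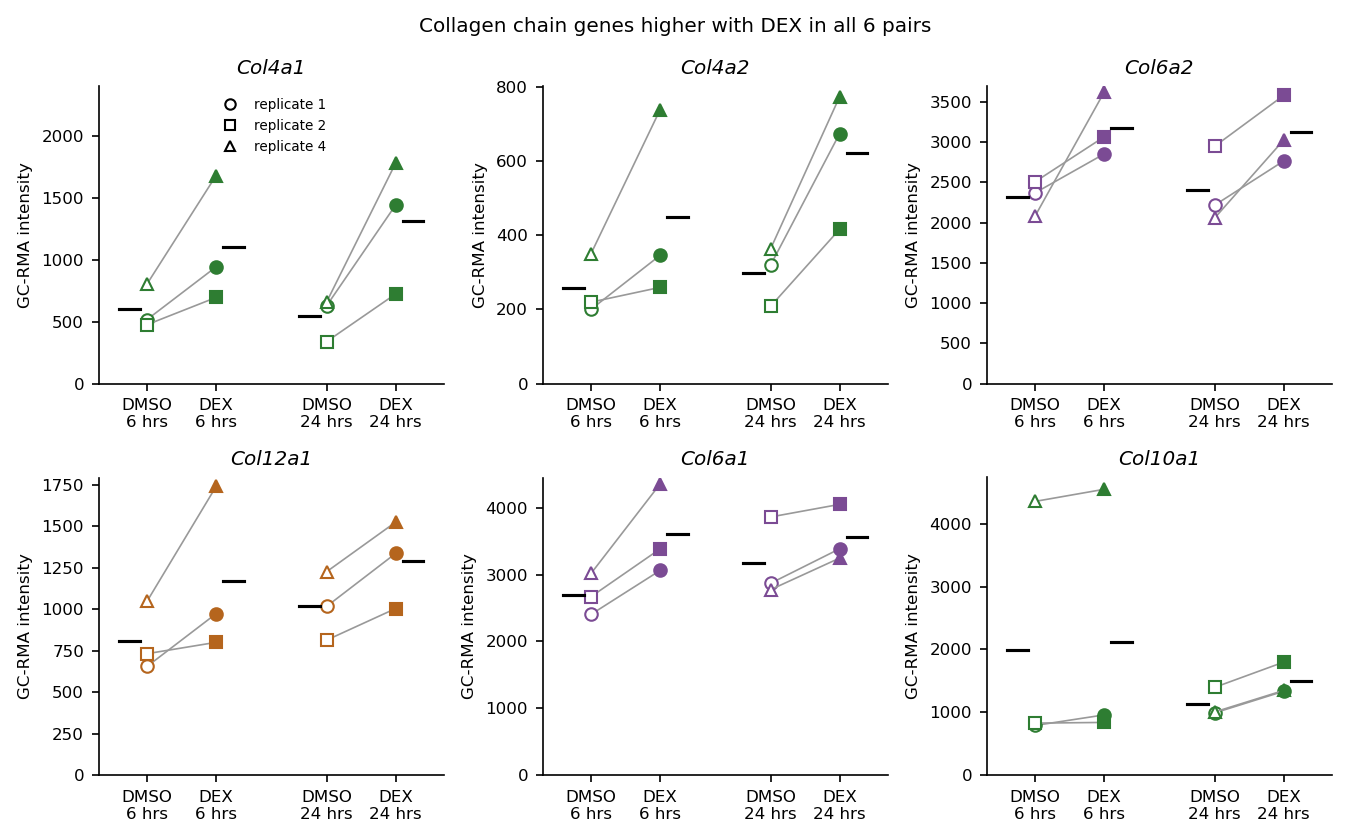
GC-RMA intensity of the 6 collagen chain genes that were higher with DEX in all 6 pairs, by group. Open symbols are DMSO and filled symbols DEX arrays, grey lines join same-numbered arrays, and black bars are group means of 3 arrays. Col4a1 and Col4a2 separate DMSO from DEX at 24 hrs, while for Col10a1 the replicate 4 pair at 6 hrs (4355 and 4547) lies above all others.

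Type VI is the beaded filament collagen around the chondrocyte. Its chain Col6a2 was at 2368, 2506 and 2078 in DMSO at 6 hrs and at 2852, 3064 and 3618 with DEX, with no overlap between the groups. At 24 hrs it was at 2215, 2947 and 2055 in DMSO and 2765, 3579 and 3025 with DEX, and here the groups overlapped. The difference over both times was 0.42 (95% interval 0.13 to 0.71), 1.34-fold, in 6 of 6 pairs. It was called with hybridization day as a block (adjusted p 0.0473) but not with the pair block (0.0807) or without a block (0.384). Within days it differed by 0.28 on day 3, 0.80 on day 4, 0.28 on day 1 and 0.44 on day 2. The second probe set of Col6a2 differed by 0.38 and was higher in 5 of 6 pairs. Col6a1 was at 2406, 2671 and 3019 in DMSO and at 3064, 3387 and 4359 with DEX at 6 hrs, again without overlap. At 24 hrs its values were 2872, 3865 and 2776 in DMSO and 3389, 4054 and 3250 with DEX. It was thus higher in 6 of 6 pairs, by 0.29 over both times (95% interval -0.01 to 0.60), and was not called in any model (lowest adjusted p 0.0947, with the day block).

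Col6a3, the largest chain of type VI, showed smaller differences. It was at 2320, 2051 and 3150 in DMSO and 2421, 2475 and 3409 with DEX at 6 hrs, and at 2068, 2414 and 1749 against 1985, 2595 and 1957 at 24 hrs. Its difference over both times was 0.11 (95% interval -0.24 to 0.46), and 5 of 6 pairs were higher. Whether the chains of type VI differ from each other in their response was not tested. Col7a1, which forms the anchoring fibrils of epithelial basement membranes, was dim: 54.4, 79.8 and 67.3 in DMSO and 94.9, 93.1 and 96.6 with DEX at 6 hrs. These groups did not overlap, with a difference of 0.52 (unadjusted p 0.0291, adjusted p 1). At 24 hrs its values were 69.7, 92.9 and 55.9 in DMSO and 79.2, 80.6 and 71.0 with DEX, which overlapped. The multiplexins, which sit at basement membranes, were not called: Col18a1 differed by 0.02 over both times, and Col15a1 by 0.24 at 6 hrs and -0.32 at 24 hrs.

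Among the FACIT chains Col12a1, found on type I fibrils of dense connective tissue, had the largest difference. In DMSO at 6 hrs it was at 655, 732 and 1048, and with DEX at 973, 800 and 1740. At 24 hrs it was at 1017, 814 and 1226 in DMSO and at 1337, 1004 and 1526 with DEX. The groups overlapped at both times, but each DEX array was above its partner. The difference over both times was 0.41 (95% interval -0.07 to 0.89), 1.33-fold, and its adjusted p was 0.0689 with the day block and 0.0802 with the pair block. Within days the values were 0.35 on day 3, 0.73 on day 4, 0.30 on day 1 and 0.35 on day 2. A second probe set, whose intensity was 161 and 154 on the day 3 DMSO arrays and 913 on the day 4 array, was called. It differed by 0.57 over both times, with adjusted p 0.0126 with the day block and 0.0198 with the pair block, and at 24 hrs by 0.69 (0.0347 and 0.0446), where the groups did not overlap. Of the fibroblast markers, the summed intensity was higher with DEX in 5 of 6 pairs, by -0.08 to 0.33. Postn rose most, from a group mean of 1020 to 1560 at 6 hrs and from 545 to 1480 at 24 hrs. Tnmd, Mkx and Pdgfra were also higher at both times. Thbs4, Twist1, Twist2, Prrx1, Thy1 and Tnc were lower at both, and Scx, Dcn, Fmod and Dpt changed sign between times. The part of these markers in the Col12a1 values was not tested.

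The type IX chains, the FACIT of cartilage fibrils, gave no call. Col9a1 was at 4605, 4075 and 6065 in DMSO and at 4161, 4791 and 6970 with DEX at 6 hrs. At 24 hrs it was at 4642, 5941 and 4964 in DMSO and at 4775, 5366 and 5756 with DEX. The groups overlapped, 4 of 6 pairs were higher, and the difference over both times was 0.07 (95% interval -0.28 to 0.41). Col9a3 was at 2267, 2360 and 4191 against 2033, 2802 and 3735 at 6 hrs, and at 2167, 3886 and 2973 against 2787, 4294 and 3626 at 24 hrs. With DEX it was higher in all 3 pairs at 24 hrs and in 1 at 6 hrs, and its difference was 0.12 (-0.38 to 0.62) over both times. Col9a2 was the most variable of the type IX chains: 158, 237 and 830 in DMSO and 147, 419 and 712 with DEX at 6 hrs, and 467, 914 and 466 against 540, 1347 and 430 at 24 hrs. Its difference of 0.19 had an interval of -0.92 to 1.30. Col16a1 differed by 0.00 and the dim Col14a1 by -0.12 over both times, each with 2 of 6 pairs higher.

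In the fibrillar class no gene was called for DEX in any of these models. Col2a1 was at 4145, 3765 and 8124 in DMSO and at 3942, 5003 and 9709 with DEX at 6 hrs. At 24 hrs it was at 5897, 7893 and 6462 in DMSO and at 4933, 5892 and 7000 with DEX. The groups overlapped and 3 of 6 pairs were higher. Its difference was 0.20 (95% interval -0.59 to 0.99) at 6 hrs, -0.19 (-0.98 to 0.60) at 24 hrs and 0.01 over both times, with an interval of -0.24 to 0.25 with the pair block. Without a block the intervals at single times leave room for larger changes, up to 0.99 at 6 hrs and down to -0.98 at 24 hrs. With the pair block they were narrower, -0.15 to 0.55 at 6 hrs and -0.54 to 0.16 at 24 hrs. With the day block they were -0.17 to 0.56 and -0.55 to 0.18. Over both times the day-block interval was -0.25 to 0.26, close to that of the pair block.

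Its partners in the cartilage fibril, the type XI chains, varied in the same way between arrays. Col11a1 was at 3873, 3420 and 7022 in DMSO and 3918, 4506 and 7382 with DEX at 6 hrs, and at 4402, 5934 and 5329 against 4626, 5763 and 5957 at 24 hrs. The difference was 0.11 (-0.36 to 0.58) over both times, with 5 of 6 pairs higher. Col11a2 was at 448, 459 and 2495 in DMSO and 360, 467 and 2391 with DEX at 6 hrs, and at 1395, 2068 and 2037 against 1887, 2646 and 2174 at 24 hrs. With DEX it was higher in all 3 pairs at 24 hrs, by 0.30 in the mean, and in 1 of 3 at 6 hrs. Col27a1, a fibrillar chain of developing cartilage, was at 497, 615 and 707 against 492, 558 and 757 at 6 hrs, and at 656, 1207 and 689 against 990, 1043 and 992 at 24 hrs. Replicates 1 and 4 were thus higher with DEX at 24 hrs and replicate 2 was lower, with a mean difference of 0.30 (-0.26 to 0.86).

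The chains of types I, III and V, which build fibrils outside cartilage, gave no call for DEX. Col1a2 was at 3854, 3694 and 5610 against 3467, 4712 and 5725 at 6 hrs, and at 4708, 4747 and 5257 against 4357, 4128 and 5895 at 24 hrs. The difference over both times was 0.01 (-0.35 to 0.38). Col1a1 was at 152, 204 and 5415 with DEX at 6 hrs, beside the DMSO values of 154, 249 and 5786 given above, and at 3996, 4396 and 4407 in DMSO and 3633, 3792 and 5103 with DEX at 24 hrs. Without a block its difference of -0.09 had an interval of -2.31 to 2.13, and with the pair block -0.30 to 0.12. Col3a1 was at 3489, 3175 and 4875 against 3200, 3676 and 4735 at 6 hrs, and at 4428, 3776 and 4773 against 3476, 3194 and 4723 at 24 hrs, lower in 3 of 3 pairs at 24 hrs. Its second probe set was lower in 6 of 6 pairs, by -0.31 over both times, and was not called (adjusted p 0.0786 with the day block and 0.107 with the pair block).

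Of the type V chains, Col5a2 was at 3667, 3316 and 6216 against 3645, 4249 and 6026 at 6 hrs, and at 4565, 4926 and 5048 against 3861, 4018 and 5341 at 24 hrs, a difference of -0.03 (-0.44 to 0.39) over both times. Col5a1 went opposite ways at the time points. It was at 1167, 1230 and 1402 in DMSO and 1223, 1395 and 1774 with DEX at 6 hrs, higher in 3 of 3 pairs. At 24 hrs it was at 1731, 1646 and 2204 in DMSO and 1629, 1244 and 1377 with DEX, lower in 3 of 3 pairs, with no overlap between the groups. The differences were 0.20 and -0.39, and neither was called. Col5a3, the dimmest tested fibrillar chain, differed by -0.08 at 6 hrs and -0.47 (-1.20 to 0.27) at 24 hrs and was lower in 5 of 6 pairs.

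Taken by class, the median difference over both times was -0.01 for the 10 fibrillar genes, with 5 above 0, and 0.09 for the 6 FACIT genes, with 5 above 0. For the 7 network genes it was 0.21, with 4 above 0, and for the 6 other genes 0.20, with 5 above 0. Over all 29 genes the median was 0.07, and 19 were above 0, beside a median of -0.02 over all tested probe sets. At 6 hrs the class medians were 0.05, 0.04, 0.12 and 0.32 in the same order, and at 24 hrs -0.10, 0.15, 0.32 and 0.13. By pair, the median of the other class was above 0 in all 6 pairs, between 0.09 and 0.47, and that of the network class in 5 of 6, between -0.03 and 0.49. The fibrillar median lay between -0.23 and 0.20 and that of the FACIT genes between -0.13 and 0.29. The classes were not tested against each other.

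**Figure D4:**
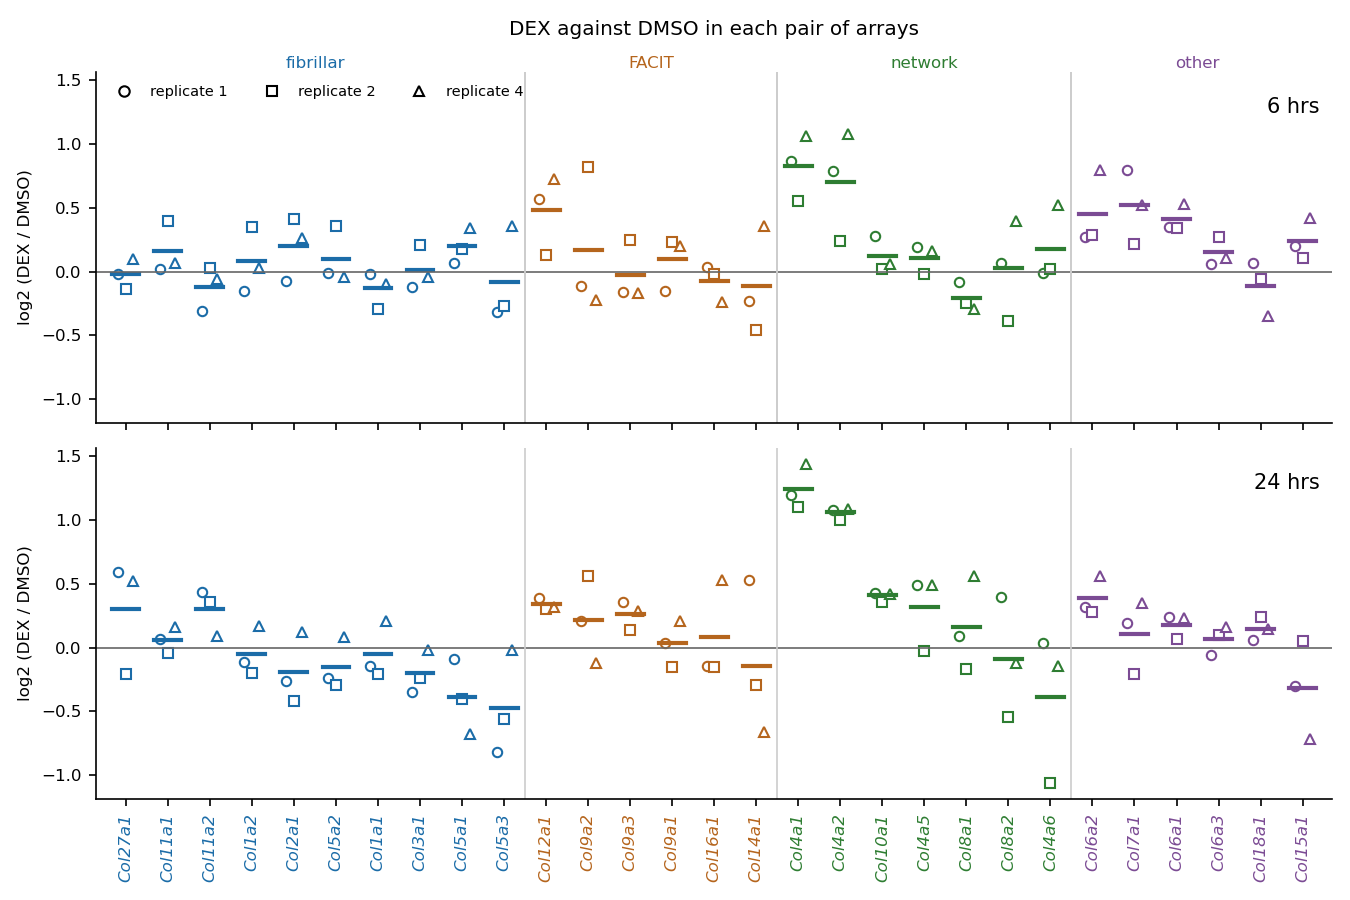
Log2 ratio of DEX to DMSO in each same-numbered pair of arrays at 6 hrs (upper panel) and 24 hrs (lower panel) for the 29 collagen chain genes, by class and by the difference over both times within a class. Symbols are replicates and horizontal bars the mean of 3 pairs. Col4a1 and Col4a2 stand highest at both times, with all 6 pairs above 0, and most other genes have pairs on both sides of 0.

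In vehicle, culture from 6 to 24 hrs could not be told apart from the hybridization day, since every day held 1 time point. All 10 fibrillar genes were higher at 24 hrs, with a median of 0.43, beside 0.13 over all tested probe sets, and the medians were 0.21 for FACIT, 0.22 for network and 0.13 for other genes. Set against the day 4 array at 6 hrs alone, 7 of the 10 fibrillar genes were lower at 24 hrs, among them Col1a1, Col2a1 and Col11a1. When all arrays were fitted, 0 of 47 collagen probe sets were called for DMSO at 24 against 6 hrs, against 0.00957% of all. An unadjusted p under 0.05 was found for 9 (19.1%), against 30.5% of all. Without the day 3 arrays a single DMSO array at 6 hrs is left and is assumed to vary like the other groups. Then 1 collagen gene was called, Col10a1, lower at 24 hrs, beside 211 of all 20897 tested probe sets. In the fit to all arrays the largest difference of a gene, by its brightest probe set, was 2.82 for Col1a1. Its day 4 array at 6 hrs lay above all 3 arrays at 24 hrs, and its second probe set differed by 0.28. For Col4a5 it was 0.97 (95% interval 0.57 to 1.36, adjusted p 0.0579), with all 3 arrays at 24 hrs above all 3 at 6 hrs, and its second probe set differed by 1.36. Col15a1 differed by 1.03 (0.38 to 1.68, adjusted p 0.0856), again without overlap, between 58.8 and 107 at 6 hrs and between 141 and 209 at 24 hrs.

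Of the 15 genes with several tested probe sets, 12 had the same sign of the DEX difference over both times in all of them. The exceptions were Col1a2 (-0.02 and 0.01), Col5a1 (from -0.10 to 0.12) and Col8a1 (from -0.02 to 0.81). The Col8a1 value of 0.81 came from a probe set that was at 1.30 on 1 DMSO array and at 24.7 on its DEX partner. Between the time points in vehicle, probe sets of a gene could lie far apart: for Col6a2 the time difference was 0.04 by one and 1.00 by the other, and for Col5a1 it ranged from 0.15 to 1.61.

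Genes that make, modify, bind and degrade collagen were read from the same fit. Over both times 0.747% of all tested probe sets were called without a block, 2.87% with the day block and 3.2% with the pair block. Of 28 tested genes of synthesis and cross-linking 0 were called over both times without a block, and the median difference was 0.07. Called under both blocks were Loxl3, a lysyl oxidase, higher by 0.57 (adjusted p 0.00439 with the day block and 0.0110 with the pair block), and Colgalt2, a collagen galactosyltransferase, higher by 0.63 (0.0333 and 0.0312), each in 6 of 6 pairs. Serpinh1, the collagen chaperone, differed by 0.01, and Lox by 0.19. Of 6 tested receptors 1 was called without a block. Itga10, the alpha chain of the integrin by which chondrocytes bind type II collagen, was higher by 1.02 (adjusted p 0.00356), and Itga2, another collagen-binding integrin chain, differed by -0.76 and was lower in 6 of 6 pairs (adjusted p 0.106 without a block, 0.0361 with the day block and 0.0655 with the pair block). Of 10 fibril partners 1 was called, Chad, chondroadherin, which binds type II collagen, higher by 0.97 (adjusted p 0.0170).

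Of the 9 tested genes of breakdown and uptake 0 were called over both times without a block, with a median of -0.11. Of all tested probe sets 0.747% were called in that fit. Timp1, an inhibitor of matrix metalloproteinases, differed by -0.42 and was lower in 6 of 6 pairs. It was called with the day block alone (adjusted p 0.0360, against 0.0555 with the pair block and 0.69 without a block). The collagenase Mmp13 differed by 0.04. Of 6 tested transcription factors of cartilage collagens 1 was called, Foxa2, higher by 0.98 (adjusted p 0.00753). Sox9, which drives Col2a1, Col9a1 and Col11a2, differed by 0.28 and was higher in 5 of 6 pairs without a call.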

How the data were processed

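RNA from 12 cultures was hybridized to 12 Affymetrix MOE 430 2.0 arrays. The authors computed linear GC-RMA intensities in GeneSpring GX and deposited them as 1 table. GCRMA is named in the submitters' processing notes, and its version is not given in the sources used here. GC-RMA pulls low signals towards background, so differences of dim probe sets are uncertain. An array has no read depth, and the number of arrays limits the precision. The paper gives 3 independent cell isolations.

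Log2 of the intensities was used with no constant added. To be tested, a probe set needed a group mean of 50 or more in 1 group or more. Tests used limma 3.58.1 in R 4.3.3 (4 group means, all 12 arrays, no block), with Benjamini-Hochberg adjustment over all 20897. Tables and figures were made with Python 3.11.15, pandas 2.3.3, numpy 2.4.6 and matplotlib 3.10.9. The fit was tested on simulated data. SE is the moderated standard error, and intervals are 95% intervals of the model.

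Platform annotation supplied the names: 34958 probe sets had 1 symbol, 932 several and 9211 none listed. All 82 collagen probe sets matched a RefSeq gene. Promoter windows are from RefSeq (GRCm38.p6).

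Hybridization days were read from the scanner files: day 1 held replicate 2 and day 2 replicates 1 and 4 at 24 hrs, and day 3 held replicates 1 and 2 and day 4 replicate 4 at 6 hrs, each with DEX and DMSO. Deviations from the group means of same-numbered DEX and DMSO arrays correlated across probe sets with r of 0.681, 0.632 and 0.863 at 6 hrs and 0.158, 0.301 and 0.220 at 24 hrs, so the numbers were used as pairs within a time. At 6 hrs these values also hold the day difference. Across times r lay between -0.0434 and 0.0892, and no pairing was used. Same-numbered arrays shared a day.

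Values in every array are given for collagen genes called in the fit without a block or with either block. They are also given for cartilage collagens, for chains of abundant trimers and for the 6 largest differences. Collagen genes, gene lists and tests were chosen with earlier results of these data known. Alternatives were both blocks, single days, other filters, an added constant of 16, quantile normalization, fits to the compared arrays alone, gene means over probe sets, the methods' unequal-variance test and leaving out each array. Leaving out the day 3 arrays was chosen after seeing the data.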

Additional observations from a re-analysis of the deposited data

Results flagged for a closer look

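Col5a1 was singled out because all 3 pairs were higher with DEX at 6 hrs (0.07, 0.18 and 0.34 on the log2 scale) and all 3 were lower at 24 hrs (-0.09, -0.40 and -0.68). Subtracting the DEX difference of the earlier time from that of the later gave -0.59 (95% interval -1.19 to 0.01), with an adjusted p of 1 by limma without a block, 0.359 with hybridization day and 0.336 with the pairs as a block. Its second probe set differed by 0.05 and -0.15 and its dimmest by 0.17 and 0.07. Groups held 3 arrays, so single arrays were not tested for standing apart.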

How the results depend on the processing

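Counts of collagen genes called, each by its brightest probe set, were 0 for every comparison in the reported fit, and 0 for every DEX comparison when any 1 array was left out. With hybridization day as a block they were 1 at 6 hrs, 2 at 24 hrs and, over both, 3. With the replicate block, which pairs same-numbered arrays, they were 1, 2 and 2, and the block changed no other collagen gene's call. For DMSO at 24 against 6 hrs the count was 1 with a minimum mean of 100 (0.6% of all tested probe sets), 1 without the arrays of day 3 (211 of 20897 in all, the lone vehicle array at 6 hrs being assumed to vary like the other groups), and between 0 and 6 with 1 array left out, the 6 without DMSO 6 hrs replicate 4 (31.7% of all) and 3 without DEX 6 hrs replicate 4 (14.2% of all). The class medians at 6 hrs moved most: with 1 array left out the fibrillar median lay between -0.16 and 0.33, FACIT between -0.17 and 0.26, network between 0.02 and 0.38 and other between 0.13 and 0.51. At 24 hrs these ranges were -0.25 to -0.03, 0.05 to 0.23, 0.21 to 0.42 and 0.02 to 0.24, and over both times -0.17 to 0.15, -0.05 to 0.20, 0.07 to 0.26 and 0.12 to 0.27. Replicate 4 at 6 hrs set the extremes of the fibrillar and FACIT medians, which were -0.16 and -0.17 without its DEX array and 0.33 and 0.26 without its DMSO array. Within day 4, and equally without day 3, the 6-hr medians were 0.40 for network and 0.47 for other genes, and within day 1 the 24-hr network median was -0.03. A value of 1 gene was taken as turned when its sign changed and the reported value was larger than its SE: Col27a1 at 24 hrs, -0.21 within day 1, was the single one, and 101 smaller values moved without meeting this. By their brightest probe sets Col4a1 and Col4a2 were above 0 in every setting at each time, but without DEX 6 hrs replicate 4 their 6-hr differences were 0.48 (reported 0.83) and 0.27 (reported 0.70). The second Col4a1 probe set was above 0 in 22 of 25 settings at 6 hrs, down to -0.37, and in 24 of 25 at 24 hrs, down to -0.22. The causes were not tested.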
